A study of Rattus norvegicus with 6 samples.

Results

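The genes described here are dematin (Dmtn) and 8 of its partners in the spectrin membrane skeleton, Add1, Add2, Add3, Sptan1, Sptbn1, Epb41, Epb41l2 and Ank1, which make up 9 of the 33566 genes in the deposited count table and were matched to it by symbol. The group was chosen by the rise of Dmtn between the 2 treatment groups, so the values of Dmtn are given as a description with no test. The partners joined it by family, with earlier results of these data known. RNA came from primary rat brain microvascular endothelial cells (rBMECs), the cells that line brain capillaries, isolated with a kit from the cerebral cortex (the labels) or forebrain (the methods) of SD rats of 18 to 22 days and used after a single passage. The Hcy group received homocysteine, a sulfur amino acid of the methionine cycle, and the Veh group received sterile water, both for 24 h, with 3 libraries each. The labels give a dose of 100 μM Hcy, while the methods name a 50 μM Hcy solution, and the 2 are not reconciled. No genetic change is named for either group. The design text calls the 3 libraries of a group biological replicates, and nothing says whether they came from separate isolations, so p-values measure the spread between these libraries.

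The membrane skeleton is a protein mesh under the plasma membrane. Long tetramers of alpha and beta spectrin are tied together at short actin filaments, and adducin, dematin and the Epb41 proteins hold spectrin to actin at these nodes. Ankyrins connect beta spectrin to membrane transporters and channels. The mesh is best known from red blood cells, where its defects deform the cell. Other cells, endothelium included, build it from the spectrins encoded by Sptan1 and Sptbn1, and there it is known for roles in cell shape, contacts and the placement of membrane proteins.

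Sequencing depth was 14024997 to 16764584 counts a library. The floor of detection was set at 3 counts, or 0.178 to 0.215 CPM (counts scaled to library size), a limit from counting error alone. In all, 14603 genes had at least 10 counts over the 6 libraries and were tested with edgeR. On the second principal component, which held 26.2% of the variance, Veh replicate 3 stood apart at 30.4, against -19 to 9.98 in the other libraries. Endothelial markers were high, and 10 of the 11 found in the table were above the floor in every library, among them Cdh5, which encodes VE-cadherin, with 22174 to 33260 counts. Together they were at 7822 to 9038 CPM in Veh and 9453 to 9879 CPM in Hcy. Of the 10 tested, 7 had positive and 3 negative log2 fold changes. In edgeR's test 0 passed an adjusted p of 0.05, against 1.32% of all tested genes as higher and 1.01% as lower. Means went from 2288 to 2934 CPM for Vwf and from 289 to 244 CPM for Tek, so the sums do not stand for each marker. Cldn5, which encodes a tight junction protein of this barrier, was at 0 counts in all libraries. The paper detects its protein in rBMECs by Western blot, so a 0 in these counts is not read as absence of RNA.

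Dmtn encodes dematin, an actin-bundling protein that sits at the spectrin–actin nodes and carries a headpiece of the villin type. It had 248, 242 and 212 counts in Veh replicates 1 to 3, and 696, 669 and 752 counts in Hcy replicates 1 to 3. Scaled to library size these were 14.7, 15.4 and 14.7 CPM in Veh and 50.0, 44.9 and 44.9 CPM in Hcy. The lowest Hcy library thus lay far above the highest Veh library, and the libraries of a group lay close together. The mean was 14.9 ± 0.417 CPM in Veh and 46.6 ± 2.93 CPM in Hcy (SD, n = 3 each), which was 3.12-fold, and edgeR put the change at 1.64 on the log2 scale, with a standard error of 0.09. These are the values that chose the gene, and no test of them is given. Over the whole table, 71 genes, or 0.486% of those tested, were called in either direction, where a call needed both an adjusted p of 0.05 or less and a log2 fold change of 1 or more in size. When 1 library was left out, that number ran from 39 to 119. Genes past the adjusted p alone were 341, and 80 to 975 without 1 library. Because the cells were measured in bulk, more RNA per cell cannot be told apart from a larger share of cells that express the gene.

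**Figure D1:**
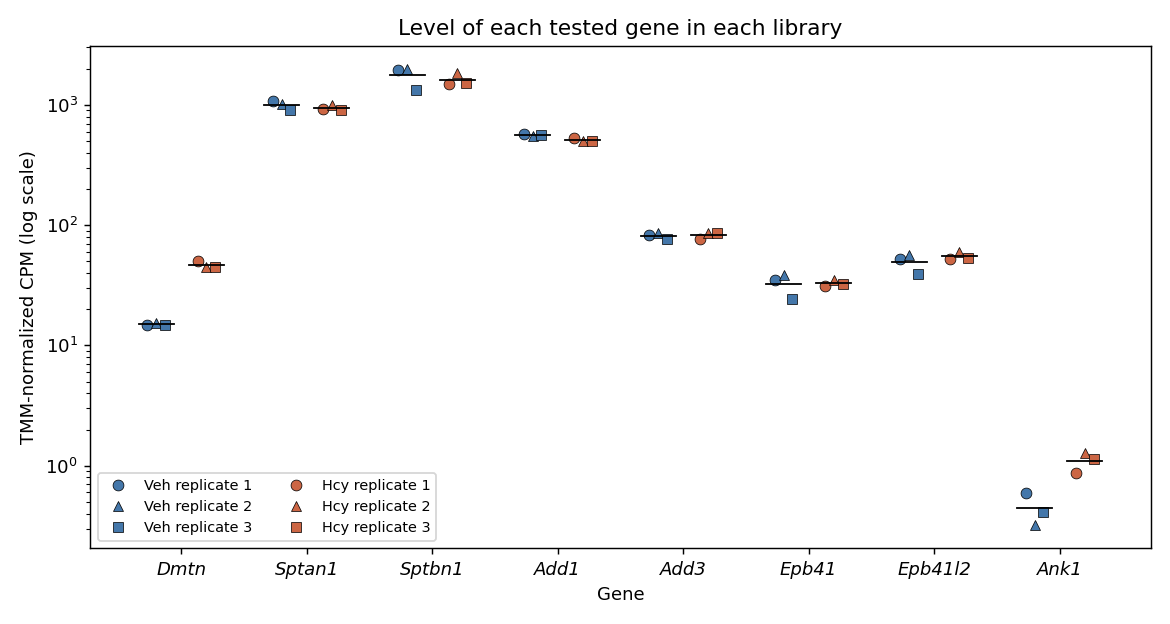
TMM-normalized CPM (log scale) of the 8 genes that were tested, with 1 point for each library, Veh in blue and Hcy in orange, symbols for the replicate number and a bar at the group mean. Dmtn moved from about 14.9 to 46.6 CPM with no overlap, and the spectrin, adducin and Epb41 genes lay at like levels in both groups. Veh replicate 3 was the lowest Veh library for Sptan1, Sptbn1, Add3, Epb41 and Epb41l2.

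Of the 8 partners of Dmtn, 7 had enough counts to be tested, and 0 passed an adjusted p of 0.05 in edgeR's quasi-likelihood test, where 1.32% of all tested genes passed as higher and 1.01% as lower in Hcy. DESeq2 also called 0 of them, where it passed 4.59% of the genes to which it gave an adjusted p. In edgeR 1, Ank1, had an unadjusted p under 0.05, as did 13.4% of all genes tested. Of the 7, 4 had positive and 3 negative log2 fold changes, with a median of 0.02 against -0.02 over all genes tested. In Ank1 and Add1 the groups did not overlap, higher in Hcy for Ank1 and lower for Add1, as was the case for 10.8% and 9.27% of all tested genes.

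Sptan1 encodes the alpha spectrin of cells other than red cells. It was at 1076, 1021 and 901 CPM in Veh replicates 1 to 3 and at 932, 1000 and 909 CPM in Hcy replicates 1 to 3. The Hcy libraries lay within the range of the Veh libraries. The gene is listed on chromosome 3 from 8534440 to 8599260 on the plus strand, and Wdr34, which overlaps it, had at most 103 counts in a library. Its log2 fold change was -0.08, with a 95% interval from -0.26 to 0.10 (edgeR, adjusted p = 0.759). Sptbn1 encodes the beta spectrin that pairs with it, and was the most abundant of the group. It is listed on the minus strand of chromosome 14 from 114518816 to 114692764. It was at 1952, 1996 and 1342 CPM in Veh and at 1491, 1827 and 1526 CPM in Hcy. Here Veh replicate 3 was the lowest of the 6 libraries, at 68.0% of the mean of the other Veh libraries. The log2 fold change of Sptbn1 was -0.13, with an interval from -0.46 to 0.21 (edgeR, adjusted p = 0.79). Without Veh replicate 3 it was -0.29 (edgeR, adjusted p = 0.0535), and that of Sptan1 was -0.15 (edgeR, adjusted p = 0.155).

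Adducins cap the fast-growing ends of actin filaments and recruit spectrin to them. Add1, which encodes alpha-adducin and is listed on the minus strand of chromosome 14 from 81367468 to 81426496, was at 578, 553 and 560 CPM in Veh and at 530, 503 and 504 CPM in Hcy. All Hcy libraries were below all Veh libraries, but by little, with means of 564 ± 13.2 CPM (SD, n = 3) and 512 ± 15.3 CPM (SD, n = 3). Its log2 fold change of -0.14 (interval -0.28 to 0.00) did not pass the test (edgeR, adjusted p = 0.379). Add3, which encodes gamma-adducin and is listed on the plus strand of chromosome 1 from 273854248 to 273961982, was at 83.0, 86.0 and 76.0 CPM in Veh and at 76.6, 86.0 and 86.7 CPM in Hcy. The groups overlapped, with a log2 fold change of 0.02 and an interval from -0.16 to 0.21 (edgeR, adjusted p = 0.942). Add2, which encodes beta-adducin and is known from red cells and brain, was at or under the floor in every library, with 0, 0 and 2 counts in Veh and 0, 3 and 0 counts in Hcy, and was not tested. The listed span of Add2, on the plus strand of chromosome 4 from 117743710 to 117882464, overlaps 6 other genes, with up to 140 counts in a library.

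Epb41 and Epb41l2 encode proteins that strengthen the binding of spectrin to actin and link the mesh to the membrane. They are listed on the minus strand, Epb41 on chromosome 5 from 150084611 to 150167077 and Epb41l2 on chromosome 1 from 20893995 to 20962526. Epb41 was at 35.0, 38.3 and 24.4 CPM in Veh and at 31.2, 35.3 and 32.6 CPM in Hcy, so that the Hcy libraries fell within the Veh range. Its log2 fold change was 0.02, with an interval from -0.33 to 0.37 (edgeR, adjusted p = 0.974), and -0.15 without Veh replicate 3 (edgeR, adjusted p = 0.382). Epb41l2 was at 52.7, 56.4 and 38.9 CPM in Veh and at 52.5, 59.4 and 52.9 CPM in Hcy. Here too only Veh replicate 3 was low, at 71.3% of the other Veh libraries for Epb41l2 and 66.5% for Epb41. The log2 fold change of Epb41l2 was 0.15, with an interval from -0.14 to 0.45 (edgeR, adjusted p = 0.696), 0.01 without Veh replicate 3 and 0.26 without Veh replicate 2. For Sptan1, Sptbn1, Add1, Add3, Epb41 and Epb41l2 together, these intervals reached from 0.727-fold to 1.37-fold, while Dmtn changed 3.12-fold. The same library was at 97.4% of the other Veh libraries for Dmtn.

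Ank1 encodes the ankyrin that anchors spectrin in red cells and is also known from neurons and muscle, and is listed on the minus strand of chromosome 16 from 73681422 to 73827488. It had 10, 5 and 6 counts in Veh and 12, 19 and 19 counts in Hcy. Every Hcy library was above every Veh library, although the lowest Hcy and the highest Veh library were only a few counts apart. Its mean rate was 0.443 ± 0.14 CPM (SD, n = 3) in Veh and 1.09 ± 0.211 CPM (SD, n = 3) in Hcy. The log2 fold change was 1.28 (standard error 0.41, interval 0.36 to 2.23), and it did not pass the adjusted p (0.186 in edgeR). LOC100910418, listed inside Ank1 on the opposite strand, had at most 85 counts in a library, and the sources used here do not say whether counting used the strand.

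**Figure D2:**
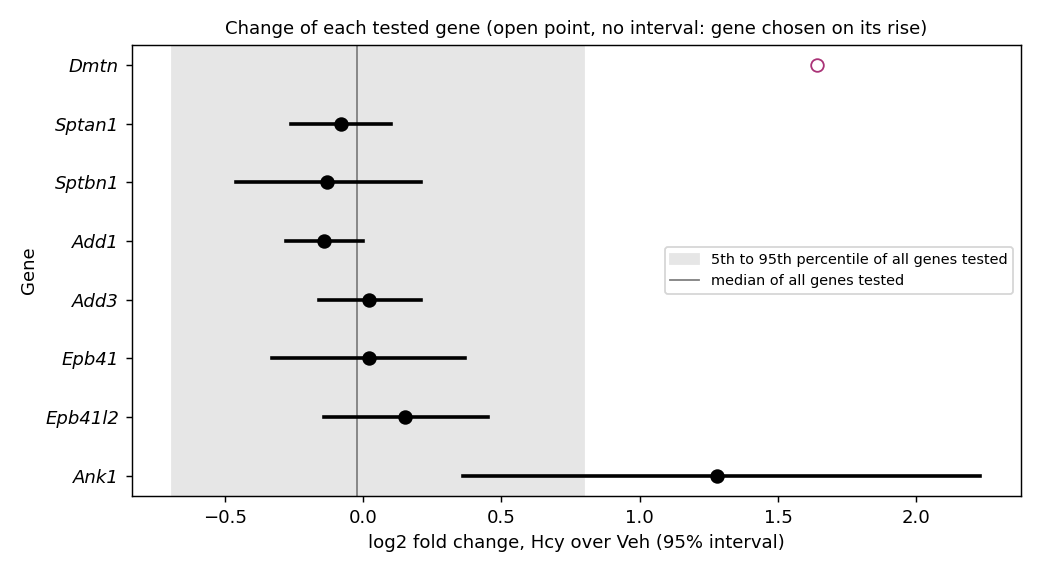
Log2 fold change of Hcy over Veh for the 8 tested genes, with its 95% interval for all but Dmtn, the grey band marking the 5th to 95th percentile of all genes tested, from -0.69 to 0.80. Dmtn, the open point at 1.64, is the gene that the group was chosen by, Ank1 has the widest interval, and the 6 other genes lie near 0.

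Levels of different genes were compared as CPM per kilobase of the deposited gene length. In Veh, Sptbn1 was at 239 ± 49.7, Add1 at 142 ± 3.31 and Sptan1 at 124 ± 11.2 CPM per kilobase (SD, n = 3). The level of Sptbn1 was above that of 97.4% of the genes tested and that of Add1 above 95.7%. Add3 at 19.6, Epb41l2 at 16.5 and Epb41 at 12.2 followed well below them. The ranges of Add3 and Epb41l2 overlapped, as did those of Epb41l2 and Epb41, but the order was the same in all 3 Veh libraries. Dmtn came next at 4.43 ± 0.124, then Ank1 at 0.0864 and Add2 at 0.0105 CPM per kilobase. In Hcy the order was the same except for Dmtn, which at 13.8 ± 0.869 CPM per kilobase stood beside Epb41 at 12.4 ± 0.781. As a share of the Epb41 level within a library, Dmtn was at 33.2%, 31.8% and 47.6% in Veh replicates 1 to 3 and at 126%, 100% and 109% in Hcy replicates 1 to 3. Against Sptan1 it was at 3.26%, 3.60% and 3.88% in Veh and at 12.8%, 10.7% and 11.8% in Hcy. Dmtn thus went from well under the Epb41 level to about that level, while it stayed a minor transcript next to the spectrins. Among all genes tested, 43.1% had a lower level than Dmtn in Veh and 66.5% in Hcy.

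Add1 gave 87.9 ± 0.72% (SD, n = 3) of the adducin level in Veh and 86.6 ± 1.12% (SD, n = 3) in Hcy, and almost all of the rest was Add3. The difference of -1.27 percentage points had p = 0.2 in a two-sided exact permutation test over libraries, where 0.1 is the smallest p that 3 against 3 can give, and was -1.92 without Hcy replicate 1. Sptan1 gave 34.5 ± 3.2% (SD, n = 3) of the summed level of Sptan1 and Sptbn1 in Veh and 35.0 ± 1.52% (SD, n = 3) in Hcy (p = 0.9 from the exact permutation test). The difference of 0.52 percentage points ran from -0.79 to 2.30 without 1 library, so its direction was not stable. Epb41 gave 42.8%, 43.3% and 41.4% of its pair with Epb41l2 in Veh and 40.1%, 40.1% and 41.0% in Hcy. All Hcy libraries were lower, and the difference of -2.07 percentage points reached the smallest p of the design, 0.1, in the exact permutation test. Adjusted over the 3 families, the exact permutation p was 0.3 for the adducins, 0.9 for the spectrins and 0.3 for the Epb41 pair, and the design could not reach 0.05.

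The Dmtn gene is listed on the minus strand of chromosome 15 from 52292765 to 52320385, in a table that names no genome build, and overlaps no other gene in it. Of the 10 genes listed within 100 kb, 6 were tested and 0 passed the adjusted p in edgeR's test, with log2 fold changes from -1.09 to 0.08, while 1.32% of all tested genes passed as higher and 1.01% as lower. Fam160b2, which lies 3.87 kb downstream on the same strand, was at 20.5 CPM in Veh and 21.7 CPM in Hcy (log2 fold change 0.08, adjusted p = 0.818 from edgeR's test). Upstream, Fgf17 at a distance of 6.39 kb, which encodes a growth factor, had 0 counts in all libraries, and Npm2, 17.1 kb away, had a single count in the whole series. Xpo7, the next expressed gene upstream at 37.5 kb, was at 73.2 and 74.2 CPM (log2 fold change 0.02, adjusted p = 0.953 from edgeR's test). The lowest value belonged to Hr, with 3 to 12 counts in a library and a wide interval, from -2.51 to 0.29 on the log2 scale (edgeR, adjusted p = 0.506).

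**Figure D3:**
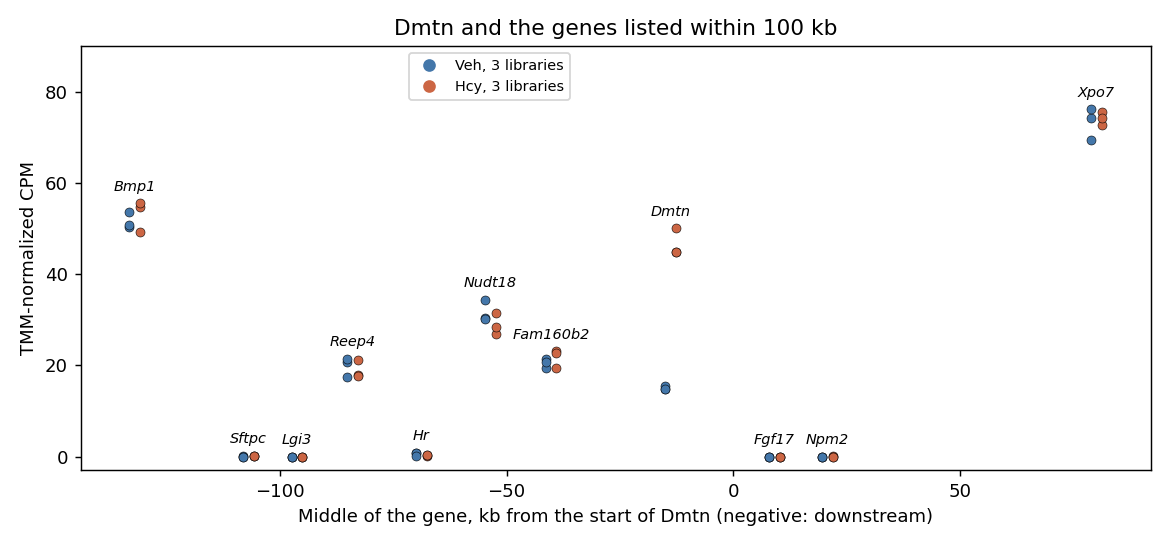
TMM-normalized CPM of Dmtn and of the 10 genes listed within 100 kb, placed by the distance of the middle of each gene from the start of Dmtn, with 1 point for each Veh (blue) and Hcy (orange) library. Dmtn is the gene whose groups part, from 14.9 to 46.6 CPM on average, while Fam160b2, Nudt18, Reep4, Bmp1 and Xpo7 are at like levels in both.

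The pattern of Dmtn over the 6 libraries was compared with that of 12296 genes that passed edgeR's filterByExpr, by Pearson's r of log2 CPM. The 5 genes most like it were Hspb8, which encodes a small heat shock protein (r = 0.997), Serpine2, a protease inhibitor (r = 0.997), Robo3, an axon guidance receptor (r = 0.996), Nrep (r = 0.994) and Fxyd6, a regulator of the sodium pump (r = 0.992). Their levels were higher in Hcy, from 21.7 to 27.2 CPM for Hspb8 and from 2.56 to 37.2 CPM for Robo3, and such an r over 6 libraries is carried by the step between groups. Their log2 fold changes differed widely, at 0.33 for Hspb8, 0.71 for Serpine2, 3.86 for Robo3, 0.84 for Nrep and 1.14 for Fxyd6. Among the partners r was 0.887 for Ank1, -0.900 for Add1, 0.445 for Epb41l2, -0.397 for Sptan1, -0.257 for Sptbn1, 0.124 for Add3 and 0.121 for Epb41. Ank1, with few counts, passed this filter only through its Hcy libraries, where it was higher, so nothing is read from its r. No p is given for these values, since the libraries share the 2 groups that chose Dmtn.

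Other genes of the same skeleton were taken from lists of 52 genes, of which 48 were in the table and 42 were tested. The lists were put together with earlier results of these data known. Of the 42, 0 passed the adjusted p as higher and 1 as lower in Hcy, Tpm2, against 1.32% and 1.01% of all tested genes, and their median log2 fold change was 0.03. DESeq2 passed 4 of them, Ank2 as higher and Tpm2, Tpm1 and Slc2a1 as lower, and 4.59% of all genes to which it gave an adjusted p. The groups did not overlap in 8 genes that were higher and 3 that were lower, against 10.8% and 9.27% of all genes.

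Red cell forms of the skeleton were at or near the floor. Epb42 had 1 count in all, and Slc4a1, the anion exchanger that ankyrin binds there, had 5. Sptb, the beta spectrin of red cells, had 2 to 9 counts in a library, with a log2 fold change of -0.80 (edgeR, adjusted p = 0.671). Ank2, an ankyrin known from heart and brain, had 38, 16 and 23 counts in Veh and 40, 65 and 72 counts in Hcy. Its groups did not overlap once scaled, and its log2 fold change of 1.24 did not pass the test (edgeR, adjusted p = 0.0983), but it did in DESeq2 (adjusted p = 0.0246) and when every gene with a count was tested (edgeR, adjusted p = 0.0499). Ank3 had 1 to 4 counts in a library. Of the other Epb41 family genes, Epb41l4a was the most abundant, at 9.68 CPM in Veh and 11.1 CPM in Hcy (log2 fold change 0.20, adjusted p = 0.563 from edgeR's test).

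Short actin filaments at the nodes are measured out by tropomyosins and capped by tropomodulins. Tpm2, which encodes beta-tropomyosin, was at 109, 103 and 137 CPM in Veh and at 57.1, 52.9 and 49.2 CPM in Hcy. All Hcy libraries were far below all Veh libraries, and Tpm2 fell by 1.14 on the log2 scale with a standard error of 0.12 (edgeR, adjusted p = 0.00214). Tpm1 was at 987 ± 28.8 CPM (SD, n = 3) in Veh and 827 ± 14.8 CPM (SD, n = 3) in Hcy. At -0.26 on the log2 scale, the difference did not pass (edgeR, adjusted p = 0.0687). DESeq2 did call it (adjusted p = 0.0118), as did edgeR without Veh replicate 3 (adjusted p = 0.0144). Tpm3 and Tpm4, the more abundant pair, had log2 fold changes of 0.01 and 0.05. Tmod3, the most abundant tropomodulin, was at 235 CPM in Veh and 261 CPM in Hcy, with no overlap of the groups and a log2 fold change of 0.15 (edgeR, adjusted p = 0.327). Actb, the most abundant gene of the list, had a log2 fold change of -0.06 (edgeR, adjusted p = 0.832). Markers of pericytes and smooth muscle, cells in which Tpm2 is known to be high, were read beside it. Of the 10 listed, 5 had negative and 5 positive log2 fold changes, and 3 fell, Cnn1, Tagln and Acta2, with log2 fold changes of -1.39, -0.88 and -0.64 (edgeR, adjusted p = 0.00177, 0.000801 and 0.0248), while 0 rose, against 1.01% and 1.32% of all genes tested. The summed level of the list was 1123 to 1352 CPM in Veh and 680 to 707 CPM in Hcy, and none of its genes was at 0 in all libraries. Most of it was Tagln, at 1071 CPM in Veh and 582 CPM in Hcy, and Acta2, at 149 and 95.5 CPM. Pericyte markers in the list were low and had higher means in Hcy, Cspg4 at 0.232 and 0.764 CPM, Rgs5 at 0.187 and 0.469 CPM and Pdgfrb at 1.64 and 2.72 CPM, with no overlap of the groups for Cspg4 and Rgs5 (edgeR, adjusted p = 0.188 for Cspg4, 0.464 for Rgs5 and 0.443 for Pdgfrb). Kcnj8, also known from pericytes, was lower in Hcy with no overlap of the groups, at 0.668 and 0.334 CPM (edgeR, adjusted p = 0.46). The part of these markers in the value of Tpm2 was not tested.

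Among the membrane proteins that the skeleton holds, Slc2a1 encodes the glucose transporter GLUT1, to which dematin and adducin are known to bind in red cells. It was at 637, 616 and 611 CPM in Veh and at 536, 470 and 487 CPM in Hcy. All Hcy libraries were lower, and the log2 fold change of -0.32 (standard error 0.07) narrowly missed the threshold (edgeR, adjusted p = 0.0536). It passed with DESeq2 (adjusted p = 0.00459), with filterByExpr (adjusted p = 0.045), when every gene with a count was tested (adjusted p = 0.0405) and without Veh replicate 3 (adjusted p = 0.0104), the last 3 from edgeR's test. Gypc, Stom, Cd47 and Slc4a2 had log2 fold changes between 0.01 and 0.11. Kcnn4, a calcium-activated potassium channel with 1 to 9 counts in a library, had the lowest value of the lists, -1.65 (edgeR, adjusted p = 0.428), and 0 of the 6 tested genes of this list passed the adjusted p. Of the genes that share the villin-type headpiece with dematin, 5 were tested and 0 passed, against 1.32% higher and 1.01% lower over all genes tested, so little can be read from a count over 5 genes. Per kilobase, Ablim3 was at 8.71 and Svil at 5.67 CPM in Veh, both above the 4.43 of Dmtn. In Hcy they were at 8.95 and 6.10, both below the 13.8 of Dmtn.

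**Figure D4:**
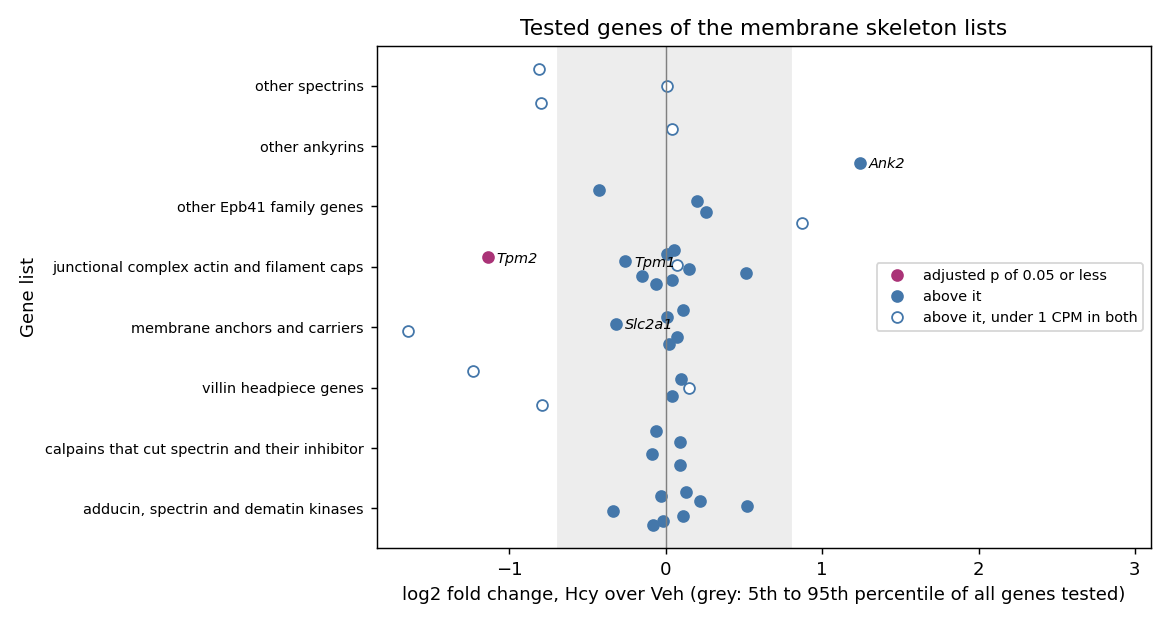
Log2 fold change of Hcy over Veh for the 42 tested genes of the membrane skeleton lists, 1 point for each gene, with open points for genes under 1 CPM in both groups and the grey band from -0.69 to 0.80 as the 5th to 95th percentile of all genes tested. Tpm2, at -1.14, is the gene past an adjusted p of 0.05, and Ank2, at 1.24, is the highest point.

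Since dematin is known from red cells, platelets and neurons, markers of these cells were read beside its rise. Of 12 erythroid markers in the table, 6 were at 0 in every library, among them Hbb and Alas2, and their summed level was 0.692 to 1.37 CPM in Veh and 0.806 to 1.15 CPM in Hcy. The 5 platelet markers summed to 1.53 to 2.49 CPM in Veh and 2.08 to 3.58 CPM in Hcy, with 2 of them at 0 in every library. Most of that was Itga2b, at 1.34 to 1.94 CPM in Veh and 2.08 to 3.46 CPM in Hcy, with no overlap of the groups (edgeR, unadjusted p = 0.049, adjusted p = 0.368). Of 10 neuron markers, 4 were at 0 in every library, Rbfox3, Snap25, Map2 and Nefl. The list summed to 5.22 to 7.30 CPM in Veh and 7.05 to 9.91 CPM in Hcy, mostly from Tubb3 and Syt1. Syt1 was at 1.08 to 1.37 CPM in Veh and 1.75 to 2.63 CPM in Hcy, so every Hcy library was above every Veh library (log2 fold change 0.85; edgeR, unadjusted p = 0.0135, adjusted p = 0.195). Tubb3 overlapped between the groups, with a log2 fold change of 0.32 (edgeR, adjusted p = 0.574). As for Cldn5, an exact 0 of a marker is not read as absence of its RNA. The part of these markers in the rise of Dmtn was not tested.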

How the data were processed

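Poly(A) RNA of 3 Hcy and 3 Veh libraries of rBMECs was sequenced. The deposited table gives unnormalized read counts for each gene, with gene lengths and positions and no named build. The submitters' processing notes list HISAT2 2.2.1, StringTie 2.2.3, featureCounts 2.0.6, DESeq2 1.42.0, fastp and Cufflinks, and the build mRatBN7.2. A second deposited table holds the authors' own comparison (normalized values, fold changes and p-values) and was not used.

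Groups followed the labels. Genes whose 6 libraries summed to 10 counts or more were scaled by TMM and compared with edgeR 4.0.16 in R 4.3.3 (quasi-likelihood test, condition as the only term, Benjamini-Hochberg adjustment over all 14603 genes). Depth and floor are given with the libraries. CPM are TMM-normalized, and SD is over 3 libraries. In simulated counts of 14368 genes, edgeR recovered 166 of 200 changed by a log2 fold change of 1, with 19 wrong calls. The 200 were drawn from genes with higher mean counts, so this recovery does not cover Ank1, Ank2 or the red cell genes. Alternatives were DESeq2 1.42.0, its size factors, library totals, other count filters, a prior count of 2, shares with no division by gene length, the replicate block and leaving out each library.

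The genes and lists were chosen with earlier results of these data known. Named were the 9 genes, list genes past the adjusted p or most abundant, genes within 100 kb of Dmtn and the 5 most like it; other names were chosen after their values were seen. Promoter sequences for Dmtn and Ank1 and protein sequences were not used here, and neither were 9 listed symbols that matched no row, 4 of them from the skeleton lists and the others markers.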

Additional observations from a re-analysis of the deposited data

How the results depend on the processing

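Dmtn was chosen by its rise in these same libraries, so its log2 fold change over the alternatives, 1.59 to 1.67, is only a description. The direction of Ank1, Add1, Sptan1, Sptbn1, Epb41l2 and Tpm2 was kept in all 13 alternatives. No partner of dematin passed the adjusted p in any of them. The log2 fold change of Ank1 ran from 1.09 to 1.56, and Tpm2 passed in all, at -1.22 to -1.0. When single libraries were left out, the log2 fold change of Add3 ran from -0.02 to 0.08 and that of Epb41 from -0.15 to 0.15. That of Epb41l2 ran from 0.01 to 0.26, that of Sptan1 from -0.15 to -0.02 and that of Sptbn1 from -0.29 to -0.03. The Hcy minus Veh difference in share then ran from -1.92 to -0.93 percentage points for Add1 and from -0.79 to 2.30 for Sptan1. It ran from -2.30 to 0.79 for Sptbn1 and from -2.64 to -1.65 for Epb41. The sign of the log2 fold change turned without Hcy replicate 2 or Veh replicate 3 for both Add3 and Epb41, and also without Hcy replicate 3 for Add3. The sign of the difference in the spectrin shares turned without Hcy replicate 1 or Veh replicate 2. The cause was not tested. The genes past the adjusted p alone were 341 in the fit reported and 604 with DESeq2, and 80 to 975 without 1 library, lowest without Hcy replicate 1 or 3 and highest without Veh replicate 3. The genes also past the fold threshold were 109 when every gene with a count was tested and 39 to 119 without 1 library. Of the skeleton lists, 4 genes passed with DESeq2, 3 when every gene with a count was tested, 2 with filterByExpr, and 1 to 3 without 1 library. Deviations of same-numbered libraries correlated at 0.0237, 0.166 and 0.0581, and those of differently numbered ones at -0.184 to 0.129. With 3 libraries a group, these values cannot decide whether the numbers pair the samples. The replicate block gave 82 called genes and 298 past the adjusted p, and 0 partners. Depth limits Ank1, Ank2 and the red cell genes, with few counts each.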

Other observations

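Spectrin is a known target of calpains, calcium-dependent proteases, and calpastatin (Cast) inhibits them. Of 4 such genes tested, 0 passed the adjusted p in edgeR's test, where 1.32% of all genes passed as higher and 1.01% as lower, or in DESeq2, where 4.59% passed. Capn2, the large subunit of m-calpain, was at 434 ± 22.6 CPM (SD, n = 3) in Veh and 407 ± 10.7 CPM (SD, n = 3) in Hcy, and Cast at 327 ± 13.6 and 314 ± 11.9 CPM (SD, n = 3 each). Capns1, the shared small subunit, had 2995, 2352 and 25 counts in Veh replicates 1 to 3 and 977, 2948 and 1410 counts in Hcy replicates 1 to 3. Its Veh replicate 3 value is far from the rest, and the cause was not tested.

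Protein kinases C and A are among those known to phosphorylate adducin, dematin or spectrin. Of 8 kinase genes tested, 0 passed the adjusted p in edgeR's test or in DESeq2, with log2 fold changes from -0.34 to 0.52. Prkcd, at 37.2, 37.7 and 38.6 CPM in Veh and 43.7, 44.5 and 44.3 CPM in Hcy, did not overlap between groups (log2 fold change 0.22, edgeR, adjusted p = 0.186). Prkcb did not overlap either, at 2.08 to 3.12 CPM in Veh and 3.30 to 3.90 CPM in Hcy (edgeR, adjusted p = 0.368). Over all genes tested, 10.8% were higher in Hcy with no overlap, and 1.32% passed edgeR's adjusted p as higher, 1.01% as lower and 4.59% DESeq2's in either direction. Nothing particular to the 8 kinase genes or the 4 calpain genes is read from their counts.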
